A study of Mus musculus with 6 samples.

Results

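The interferon-induced GTPases followed here were 6 genes, Irgm1, Igtp, Iigp1, Gbp2, Gbp3 and Gbp7, taken by gene symbol from the 31053 genes of the deposited matrices. They were chosen because they had been seen higher in glial nuclei of stressed mice in these same libraries, so their Stress and Control values in glia and neurons are given as descriptions, without p-values. 5 of the 6 had UMIs (unique molecular identifiers, which count captured RNA molecules), and Igtp had 0 UMIs in every library.

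The study asked how psychological stress acts on the enteric nervous system, the neurons and glia of the gut wall. Nuclei of the colon of wild-type C57BL/6J mice were sorted on DAPI, a DNA stain, and on INTACT, a tag on the nuclear envelope of chosen cells, and were sequenced as single nuclei on the 10x Genomics platform. The Stress group (3 libraries) came from mice restrained daily for 7 days, the Dexamethasone group (1 library) from mice injected with this synthetic glucocorticoid over 7 days, and the Control group (2 libraries) from mice given the control treatment. What drives the INTACT tag, the age of the mice and how many animals a library holds are not given in the sources used here. P-values therefore measure the spread between these libraries, which may be technical.

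The IRG proteins (immunity-related GTPases: Irgm1, Igtp, Iigp1) and the GBP proteins (guanylate-binding proteins: Gbp2, Gbp3, Gbp7) are GTPases whose genes are transcribed after interferon, above all interferon gamma. In mouse cells infected by vacuole-dwelling parasites or bacteria, effector IRGs such as Iigp1 and the GBPs gather on the membrane of the pathogen's vacuole, while the regulators Irgm1 and Igtp sit on the cell's own membranes and hold the effectors inactive there. Loading onto the vacuole needs part of the autophagy conjugation machinery. In the intestine these genes are known as readouts of interferon exposure.

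Since the members belong to families known to be transcribed after interferon, their promoter windows are shown next, from RefSeq on GRCm38.p6, from 250 bases before to 50 bases after each annotated start. Windows of 5 of the 6 members were used. Iigp1 was left out before the search, so the motif counts below say nothing about it. Gbp3 has a second annotated start whose window is not printed. Capitals mark the core of the interferon-stimulated response element (ISRE), searched as GAAANNGAAA or, on the other strand, TTTCNNTTTC.
Irgm1, chr11:48871371-48871670 (- strand): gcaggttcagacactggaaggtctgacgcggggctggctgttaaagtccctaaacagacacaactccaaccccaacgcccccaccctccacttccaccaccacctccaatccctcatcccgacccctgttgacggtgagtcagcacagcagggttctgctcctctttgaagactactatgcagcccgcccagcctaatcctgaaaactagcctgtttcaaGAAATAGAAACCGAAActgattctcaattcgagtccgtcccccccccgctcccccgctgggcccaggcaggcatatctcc
Igtp, chr11:58199306-58199605 (+ strand): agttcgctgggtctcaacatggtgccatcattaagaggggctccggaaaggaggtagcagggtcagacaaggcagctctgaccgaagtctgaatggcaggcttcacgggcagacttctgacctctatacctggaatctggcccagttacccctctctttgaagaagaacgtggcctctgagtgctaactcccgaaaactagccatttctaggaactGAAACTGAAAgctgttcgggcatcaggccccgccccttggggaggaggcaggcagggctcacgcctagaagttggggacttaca
Gbp2, chr3:142620413-142620712 (+ strand): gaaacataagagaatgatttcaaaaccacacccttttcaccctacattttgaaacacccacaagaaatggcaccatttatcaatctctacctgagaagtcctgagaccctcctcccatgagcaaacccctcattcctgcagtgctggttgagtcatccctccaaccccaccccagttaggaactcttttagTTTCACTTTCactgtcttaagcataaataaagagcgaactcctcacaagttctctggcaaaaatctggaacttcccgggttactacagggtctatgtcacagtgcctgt
Gbp3, chr3:142559794-142560093 (+ strand): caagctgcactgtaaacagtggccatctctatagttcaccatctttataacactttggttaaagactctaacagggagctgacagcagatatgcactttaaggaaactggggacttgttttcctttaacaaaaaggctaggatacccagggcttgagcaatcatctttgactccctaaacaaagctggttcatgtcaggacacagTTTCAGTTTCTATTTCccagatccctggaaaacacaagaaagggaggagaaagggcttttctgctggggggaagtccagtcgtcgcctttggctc
Gbp7, chr3:142530086-142530385 (+ strand): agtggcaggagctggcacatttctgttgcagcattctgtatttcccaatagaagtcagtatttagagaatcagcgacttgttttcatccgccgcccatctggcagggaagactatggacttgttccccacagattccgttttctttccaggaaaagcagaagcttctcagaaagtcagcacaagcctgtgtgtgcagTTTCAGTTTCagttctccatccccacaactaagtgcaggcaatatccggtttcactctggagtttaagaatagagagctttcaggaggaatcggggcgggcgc
The ISRE core was present in 5 of the 5 members searched and in 5 of their 6 windows, with Iigp1 left out. Of all 32851 RefSeq windows of this length, 3.443% hold it. In Irgm1 and in the printed Gbp3 window there were 2 overlapping matches. The gamma-activated site core, another interferon response element, was searched as TTCNNNGAA, which reads the same on both strands. It was present in 2 of the 5 members searched (Gbp7 and Igtp). Of all genes with a window, 2582 of 27025 held it, and of all windows 8.298% did. These matches describe letters in a window and show no binding.

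In GENCODE M21 on GRCm38, all 6 are protein-coding genes. Irgm1 lies at chr11:48861968-48871683 on the minus strand. Iigp1 lies at chr18:60376027-60392634 on the plus strand. Gbp7 (chr3:142530342-142550149), Gbp3 (chr3:142560026-142573209) and Gbp2 (chr3:142620602-142638008) follow one another on the plus strand of chromosome 3. Igtp spans chr11:58199556-58207591 on the plus strand, and 99.23% of it lies inside the annotated span of Irgm2, another regulatory IRG, on the same strand. Irgm2 was counted in all 6 libraries, with 170, 172 and 235 UMIs over all barcodes of Stress 1 to 3, 111 in Dexamethasone 1 and 17 and 92 in Control 1 and 2. The 0 counts of Igtp therefore give no level for that gene, and how the authors' counting treated the overlap was not tested.

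The 6 libraries held 11040 barcodes and 58954323 UMIs, and 3430 nuclei (31.07%) were kept, each with 300 or more genes detected and no more than 5% of its UMIs from mitochondrial genes. 17 barcodes occurred in 2 or more libraries, at most 3 in any pair. Clustering gave 881 glia-like and 527 neuron-like nuclei, named from marker genes. Glia markers summed to 7529 to 8828 CPM (UMIs per 1000000 UMIs of the class) in glia-like nuclei of Stress, 7789 in Dexamethasone and 5791 to 6722 in Control, and neuron markers there to 184 to 368, 441 and 203 to 324. The median depth of glia-like nuclei was 1696, 3810 and 4478 UMIs in Stress 1 to 3, 5556 in Dexamethasone 1 and 2124 and 3112 in Control 1 and 2. Levels below are CPM with exact Poisson 95% intervals, which cover counting error only. Levels are not compared between genes, since nuclear counts may depend on gene length.

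In glia-like nuclei each of the 5 counted members was higher in every Stress library than in both Control libraries. The members together reached 242, 414 and 429.5 CPM in Stress 1 to 3, 284 CPM in Dexamethasone 1 and 32.0 and 59.3 CPM in Control 1 and 2. These are 75, 198 and 375 member UMIs in Stress, 193 in Dexamethasone and 15 and 26 in Control. The pooled Stress level was 8.63 times the pooled Control level (counting interval 6.29 to 12.1). The lowest Stress interval began at 190 CPM and the highest Control interval ended at 86.9 CPM. Over all genes with at least 20 UMIs in these nuclei, 15.9% of 9274 also had every Stress library above both Controls. Since the members were chosen on this contrast, nothing is read from that share or from the edgeR calls, which were made for 2.06% of 6545 genes.

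**Figure D1:**
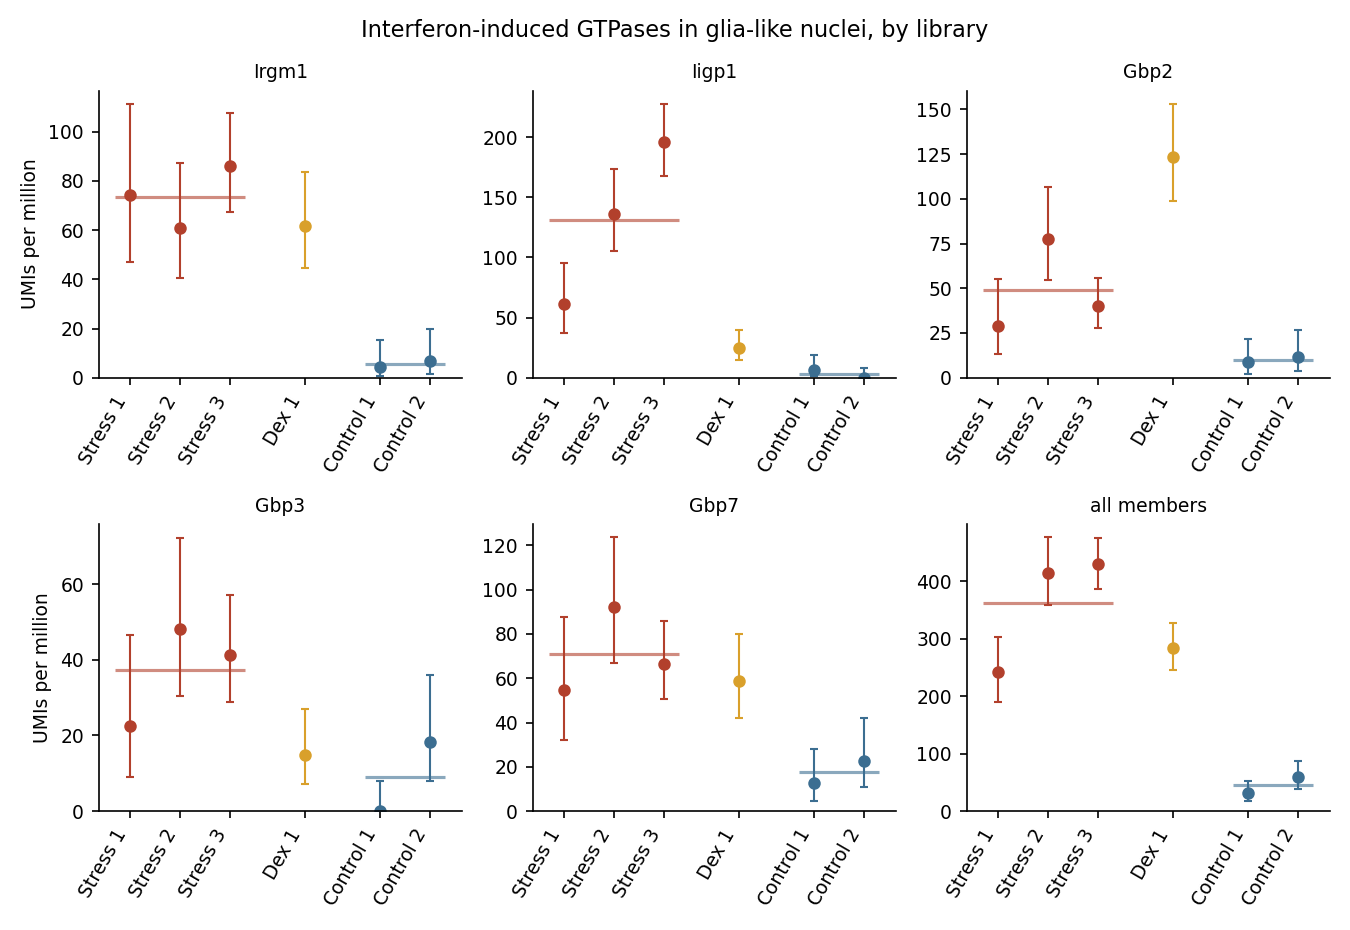
Levels of the 5 counted members and of their sum in glia-like nuclei. The vertical axis is CPM, each point is 1 library (Stress red, Dexamethasone yellow, Control blue), bars are exact Poisson 95% intervals and lines are means of the Stress and Control libraries. In every panel the 3 Stress points lie above both Control points, and Gbp2 is highest in the Dexamethasone library (124 CPM).

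Irgm1, the regulator that guards host membranes and takes part in autophagy, had 74.1, 60.7 and 85.9 CPM in Stress 1 to 3, 61.8 CPM in Dexamethasone 1 and 4.27 and 6.85 CPM in Control 1 and 2. The Stress libraries lay close together and far above both Controls, which held 2 and 3 Irgm1 UMIs. The means were 73.6 ± 12.6 CPM in Stress (SD, n = 3) and 5.56 ± 1.82 CPM in Control (SD, n = 2), and the fitted log2 difference was 3.66 ± 0.47 (SE). Irgm1 was spread over nuclei: 18 of 124, 17 of 118 and 40 of 184 glia-like nuclei of Stress 1 to 3 had a UMI, 22 of 114 in Dexamethasone 1 and 2 of 203 and 3 of 138 in Control 1 and 2. No Stress nucleus held more than 10 of its UMIs.

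Iigp1, an effector IRG that coats pathogen vacuoles in infected mouse cells, had 61.2, 136 and 196 CPM in Stress 1 to 3, 25.01 CPM in Dexamethasone 1 and 6.40 and 0 CPM in Control 1 and 2. Stress libraries differed among themselves by more than their counting intervals, with Stress 1 (36.9 to 95.6) below Stress 2 (105 to 173). Its 0 UMIs in Control 2 have an exact Poisson upper limit of 8.42 CPM. The fitted log2 difference was 5.25 ± 0.82 (SE). It was 4.35 without Control 2, and 9.19 without Control 1, a value that depends on the prior count because the remaining Control held no UMI. Iigp1 was uneven between nuclei: 11 of 118 nuclei of Stress 2 held all 65 of its UMIs. Of these, 2 nuclei in different glia-like clusters held 22 each. In Stress 3, 27 of 184 nuclei held 171 UMIs, with 25 in 1 nucleus. Without 1 nucleus of most Iigp1 UMIs in each library the levels were 52.1, 91.3 and 168 CPM in Stress and 17.8 CPM in Dexamethasone, against 2.15 and 0 CPM in Control. The Stress 2 value still holds the other nucleus of 22 UMIs.

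Gbp2, a GBP that acts on pathogen vacuoles and bacteria, had 29.0, 77.4 and 40.1 CPM in Stress 1 to 3, 124 CPM in Dexamethasone 1 and 8.53 and 11.4 CPM in Control 1 and 2. The Dexamethasone library was the highest of the 6 in these nuclei, though not in the barcodes left out by the mitochondrial filter, and all 3 Stress libraries lay above both Controls. In Dexamethasone 51 of the 84 Gbp2 UMIs came from 1 nucleus, and in Stress 2 19 of 37 did. Without the nucleus of most Gbp2 UMIs in each library, the levels were 16.3, 38.2 and 29.9 CPM in Stress 1 to 3, 49.5 CPM in Dexamethasone 1 and 4.32 and 6.88 CPM in Control 1 and 2. The fitted log2 difference between Stress and Control was 2.24 ± 0.53 (SE).

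Gbp3 had 22.6, 48.1 and 41.2 CPM in Stress 1 to 3, 14.7 CPM in Dexamethasone 1 and 0 and 18.3 CPM in Control 1 and 2. Its Control libraries stood apart from each other (0 and 8 UMIs), and Stress 1 (interval 9.07 to 46.5) and Control 2 (interval 7.88 to 36.0) were not separated beyond counting error. The fitted log2 difference was 2.05 ± 0.72 (SE). It was 1.05 without Control 1, and 7.37 without Control 2, a value that depends on the prior count because Control 1 held no Gbp3 UMI. Gbp3 was spread over 7, 15 and 22 nuclei of Stress 1 to 3, with at most 5 UMIs in any of them.

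Gbp7, a GBP that in mice contributes to oxidative host defence, had 54.8, 92.1 and 66.4 CPM in Stress 1 to 3, 58.9 CPM in Dexamethasone 1 and 12.8 and 22.8 CPM in Control 1 and 2. The 3 Stress libraries lay above both Controls, and the Dexamethasone library lay within the Stress range in these nuclei. The means were 71.1 ± 19.1 CPM in Stress (SD, n = 3) and 17.8 ± 7.08 CPM in Control (SD, n = 2), and the fitted log2 difference was 1.96 ± 0.39 (SE).

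Against the same 2 Control libraries, the Dexamethasone library gave fitted log2 differences of 3.52 ± 0.56 (SE) for Irgm1, 3.696 ± 0.51 for Gbp2, 2.92 ± 1.25 for Iigp1, 1.81 ± 0.48 for Gbp7 and 0.80 ± 0.97 for Gbp3. With 1 library this group has no spread of its own, and the fit assumes that it varies like the others. All members together had 6.28 times the pooled Control level (counting interval 4.47 to 9.03). Gbp3 in Dexamethasone (interval 7.06 to 27.1 CPM) could not be told from Control 2, and Iigp1 (14.6 to 40.0 CPM) lay below Stress 2 and Stress 3. The Stress and Dexamethasone values share their Control libraries and are no independent evidence of each other.

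The share of glia-like nuclei with at least 1 member UMI was 31.5%, 37.3% and 42.4% in Stress 1 to 3, 46.5% in Dexamethasone 1 and 5.42% and 13.0% in Control 1 and 2. After each nucleus was thinned to 1000 UMIs, leaving out 26, 4, 6, 5, 29 and 3 shallower nuclei in the same order, the shares were 13.3%, 16.7% and 21.9% in Stress, 18.4% in Dexamethasone and 1.72% and 5.93% in Control. The exact binomial 95% intervals ran from 7.26% upward in Stress and up to 11.3% in Control 2, so that the intervals of Stress 1 and of Stress 2 overlapped that of Control 2. Neuron-like nuclei gave thinned shares of 0%, 2.06% and 3.13% in Stress, 2.86% in Dexamethasone and 0.735% and 1.75% in Control, at median depths of 2943, 8433, 8906, 1062, 2355 and 4538 UMIs. The exact upper limit for the 0 of 28 nuclei in Stress 1 was 12.3%.

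**Figure D2:**
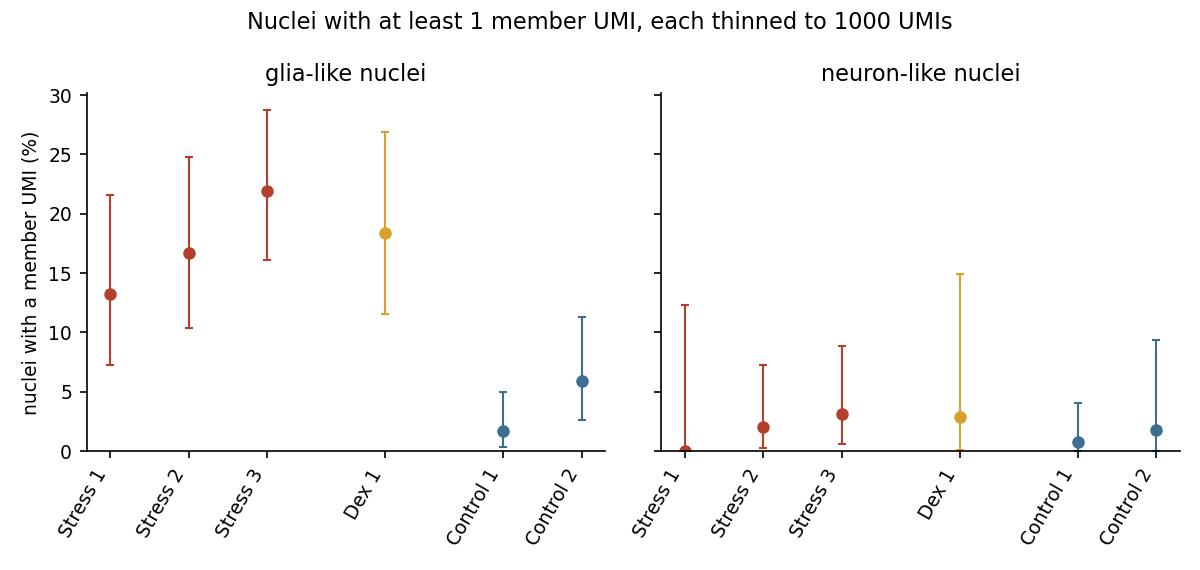
Percent of glia-like (left) and neuron-like (right) nuclei with at least 1 member UMI after thinning each nucleus to 1000 UMIs. Points are libraries, bars are exact binomial 95% intervals. Glia-like nuclei of Stress reach 13.3% to 21.9%, and those of Control 1.72% and 5.93%.

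A few nuclei carried many of the member UMIs. The glia-like nucleus with most member UMIs held 8, 53 and 38 in Stress 1 to 3, 58 in Dexamethasone 1 and 2 and 4 in Control 1 and 2. The 53 UMIs of the Stress 2 nucleus were 22 of Iigp1, 19 of Gbp2, 6 of Irgm1, 5 of Gbp7 and 1 of Gbp3. That nucleus held 40 glia, 3 neuron, 3 epithelium and 1 smooth muscle marker UMIs. It held 0 of the macrophage, T or NK cell, endothelium and fibroblast markers. The Dexamethasone nucleus held 51 Gbp2 and 5 Gbp7 UMIs but 0 of Iigp1. Its marker UMIs were 72 of glia, 3 of lymphatic endothelium, 3 of epithelium, 2 of fibroblasts, 1 of neurons and 1 of smooth muscle. Leaving out that nucleus in each library gave fitted log2 differences between Stress and Control of 3.42 for Irgm1, 4.95 for Iigp1, 1.78 for Gbp2, 2.21 for Gbp3 and 2.28 for Gbp7.

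Glia-like nuclei fell into 3 clusters, which were unevenly filled: a cluster led by Arih1, Nr4a3 and Crem held 14, 32 and 86 nuclei of Stress 1 to 3, 79 of Dexamethasone 1 and 6 and 2 of Control 1 and 2, whereas most Control nuclei (165 and 116) lay in a cluster led by Col11a1 and Frzb. Within the Col11a1 and Frzb cluster, where edgeR called 0.677% of 5024 genes, the members summed to 183, 203 and 329 CPM in Stress 1 to 3, 166 CPM in Dexamethasone 1 and 26.1 and 50.7 CPM in Control 1 and 2. Every Stress library again lay above both Controls, but how many of all genes show that order was not counted in this cluster. Of 43 listed pathway genes tested in that cluster 4 rose in Stress by edgeR's quasi-likelihood test, among them Nlrc5 (1.41, adjusted p = 0.0416), Oasl2 (2.66, adjusted p = 0.00577) and Rnf213 (1.48, adjusted p = 0.0404). Within a cluster led by Col28a1, Kcna1 and Scn7a they summed to 496, 585 and 166 CPM in Stress, 361 CPM in Dexamethasone and 55.2 and 57.7 CPM in Control, from 12 to 34 nuclei a library. In the Arih1, Nr4a3 and Crem cluster they summed to 289, 581 and 536 CPM in Stress, 302 CPM in Dexamethasone and 62.5 and 342 CPM in Control, where the 2 nuclei of Control 2 gave 4 UMIs and the groups overlapped. Irgm1 within the Col11a1 and Frzb cluster was 56.3, 42.5 and 39.8 CPM in Stress, 99.4 CPM in Dexamethasone and 5.23 and 8.01 CPM in Control.

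Because the groups filled the clusters differently, the members' levels were also weighted to the same share of each cluster in every library. The log2 difference of the weighted means was then 4.48 for Irgm1 (71.6 CPM in Stress and 3.22 CPM in Control) and 6.05 for Iigp1 (126 and 1.91 CPM). It was 0.36 for Gbp2 (44.8 CPM in Stress and 34.9 CPM in Control), 0.64 for Gbp3 (34.1 and 21.9 CPM) and 0.78 for Gbp7 (73.9 and 43.1 CPM), all far below the unweighted values of these 3 GBP genes. The weighted Control values of the Arih1, Nr4a3 and Crem cluster rest on 2 member UMIs in 6 nuclei and 4 in 2 nuclei, and the 4 came from 1 nucleus.

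The barcodes that the mitochondrial filter had left out gave a second set of glia-like profiles, 1233 in all, not used above. There the members summed to 415, 272 and 438 CPM in Stress 1 to 3, 168 CPM in Dexamethasone 1 and 30.5 and 49.8 CPM in Control 1 and 2. They came from the same libraries, so they are the same samples seen in other barcodes. Irgm1 had 77.2, 73.1 and 94.4 CPM in Stress, 57.3 CPM in Dexamethasone and 2.34 and 8.90 CPM in Control. The order of the Stress libraries differed for Iigp1, which was highest in Stress 3 in the nuclei kept and in Stress 1 here: it had 190.3, 50.8 and 109.6 CPM there, 7.02 CPM in Dexamethasone and 2.34 and 2.67 CPM in Control. Gbp2 had 42.2, 27.0 and 93.3 CPM in Stress, 54.95 CPM in Dexamethasone and 9.37 and 9.79 CPM in Control, so that Stress 3 was the highest, also without the nucleus of most Gbp2 UMIs in each library (50.2 CPM in Stress 3 and 43.6 CPM in Dexamethasone). Gbp7 had 57.6, 65.15 and 83.6 CPM in Stress, 29.2 CPM in Dexamethasone and 10.5 and 19.6 CPM in Control, and here the Dexamethasone library lay below every Stress library. Gbp3 had a fitted log2 difference between Stress and Control of 2.77 ± 0.37 (SE) in these barcodes. In the 717 neuron-like barcodes left out by the same filter the members summed to 22.2, 21.9 and 26.2 CPM in Stress, 35.7 CPM in Dexamethasone and 3.799 and 8.31 CPM in Control.

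**Figure D3:**
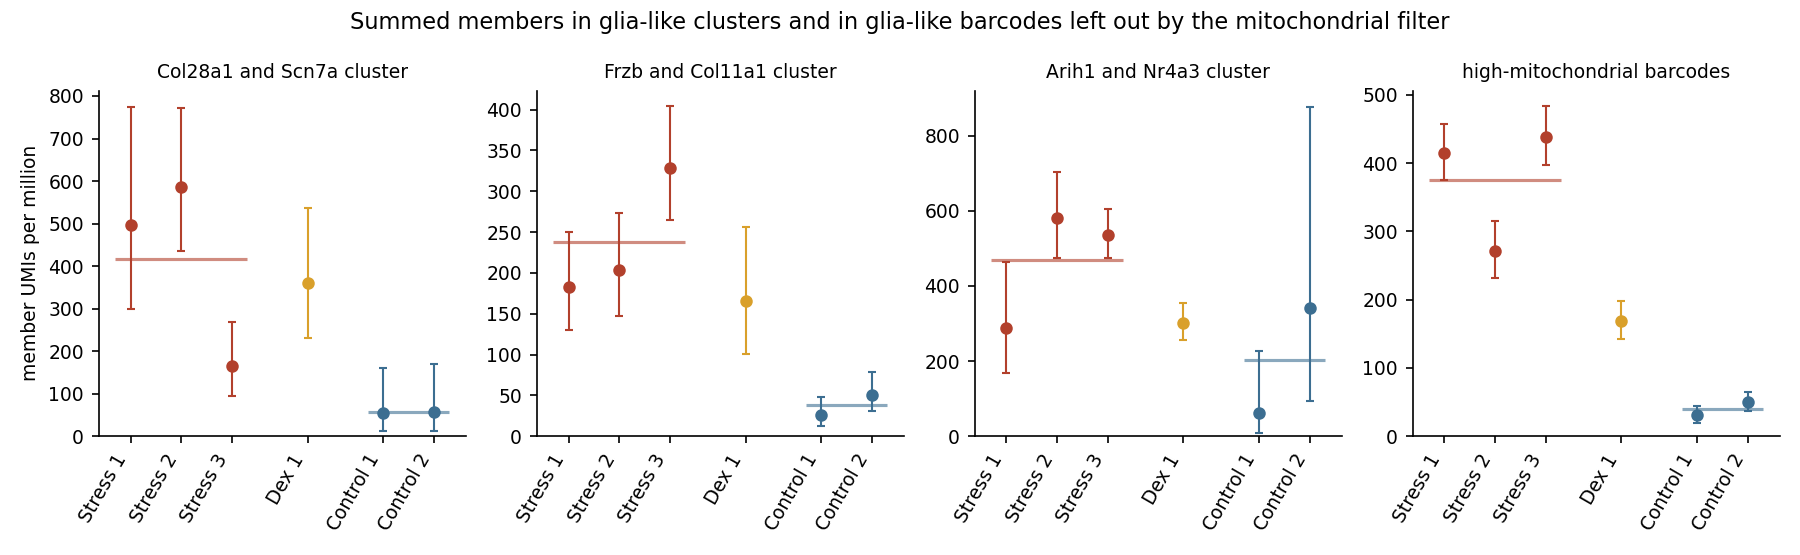
Summed level of the members in the 3 glia-like clusters and in glia-like barcodes above the 5% mitochondrial limit. The vertical axis is member CPM on a scale of its own in each panel, points are libraries with exact Poisson 95% intervals, and lines are means of Stress and of Control libraries. Stress lies above Control without overlap in 3 of the 4 panels, and the Arih1 and Nr4a3 cluster has only 6 and 2 Control nuclei. How many of all genes show this order was not counted for these panels.

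Markers of other cell types were also counted in glia-like nuclei, and several lists moved with the groups. The 11 macrophage markers summed to 38.7, 20.9 and 36.7 CPM in Stress 1 to 3, 75.0 CPM in Dexamethasone 1 and 12.8 and 13.7 CPM in Control 1 and 2, with Cd163 and Fcgr1 at 0. The 7 lymphatic endothelium markers summed to 90.2, 103 and 149 CPM in Stress, 218 CPM in Dexamethasone and 59.7 and 59.3 CPM in Control, with Ccl21a at 0. The 9 smooth muscle markers, all detected, summed to 38.7, 52.3 and 164 CPM in Stress, 436 CPM in Dexamethasone and 34.1 and 41.1 CPM in Control. In these 3 lists the Dexamethasone library was the highest, and in the lymphatic and macrophage lists every Stress library lay above both Controls. The 6 pericyte markers summed to 61.2, 67.0 and 55.0 CPM in Stress, 66.2 CPM in Dexamethasone and 44.8 and 43.4 CPM in Control, with Kcnj8 at 0. The 8 B or plasma cell markers summed to 12.9, 6.28 and 19.5 CPM in Stress, 4.41 CPM in Dexamethasone and 4.27 and 4.56 CPM in Control, with Cd79b, Iglc2 and Mzb1 at 0. Epithelium markers summed to 321 to 697 CPM in Stress, 415 CPM in Dexamethasone and 501 to 801 CPM in Control, and fibroblast markers to 165 to 226, 131 and 207 to 251 CPM in the same order, so that some of these sums were as large as those of the members. The 16 T or NK cell markers summed to 2.94 to 8.53 CPM in any library, with 10 of them, Ifng and Cd3e among them, at 0, and the 7 mast cell or neutrophil markers were at 0 throughout. In glia-like nuclei with 0 UMIs of the macrophage, T or NK, B or plasma cell and endothelium markers, the fitted log2 differences between Stress and Control were 3.71 for Irgm1, 5.54 for Iigp1, 2.89 for Gbp2, 2.07 for Gbp3 and 2.53 for Gbp7, in each case at least as large as in all glia-like nuclei. That selection did not cover smooth muscle, pericyte, epithelium or fibroblast markers, whose part in the values was not tested.

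In neuron-like nuclei the members were far less abundant, and no expression in neurons is read from them, since free RNA also gives UMIs in droplets. Glia markers summed there to 928, 953 and 1157 CPM in Stress 1 to 3, 1274 CPM in Dexamethasone 1 and 971 and 966 CPM in Control 1 and 2. Their list includes Ncam1 and Kcna1, which neurons can transcribe too, so these sums need not be free RNA alone. This was 12.3%, 10.8% and 13.6% of their level in glia-like nuclei of the same Stress library, 16.4% in Dexamethasone and 14.4% and 16.7% in Control. The members stood at 8.35%, 5.20% and 5.74% of their glia level in Stress, 12.2% in Dexamethasone and 32.8% and 9.47% in Control, above the glia markers in Control 1 alone, where they had 7 UMIs. Together they reached 20.2, 21.5 and 24.7 CPM in Stress 1 to 3, 34.6 CPM in Dexamethasone 1 and 10.5 and 5.62 CPM in Control 1 and 2, from 5, 27, 34, 21, 7 and 2 UMIs. The 3 Stress libraries lay above both Controls, as did 17.1% of 10856 genes, and their counting intervals overlapped those of Control. The pooled Stress level was 2.61 times the Control level (counting interval 1.29 to 5.95). None of the members passed the low-count filter in Stress against Control. Gbp7 had 20.2, 9.57 and 8.71 CPM in Stress, 0 CPM in Dexamethasone (exact upper limit 6.08 CPM) and 4.49 and 5.62 CPM in Control. Irgm1 in neurons was highest in Dexamethasone, with 0, 4.79 and 8.71 CPM in Stress, 26.4 CPM in Dexamethasone and 4.49 and 0 CPM in Control, and 7 of the 16 Dexamethasone UMIs came from 1 nucleus. Iigp1 had 0, 4 and 7 UMIs in Stress and 0 in each of the other libraries.

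In lymphatic endothelium-like nuclei they summed to 110, 159 and 936 CPM in Stress 1 to 3, 159 CPM in Dexamethasone 1 and 0 and 89.9 CPM in Control 1 and 2. Stress 3 stood apart, with 91 UMIs over 14 of 30 nuclei. In fibroblast-like nuclei the sums were 226, 103 and 451 CPM in Stress, 107 CPM in Dexamethasone and 57.3 and 36.8 CPM in Control, and 10 of the 16 UMIs of Stress 1 and 30 of the 49 of Stress 3 came from 1 nucleus each. In epithelium-like nuclei they were 377, 74.7 and 60.4 CPM in Stress, 0 CPM in Dexamethasone (8 nuclei) and 11.9 and 36.8 CPM in Control, and 40 of the 70 UMIs of Stress 1 came from 1 nucleus. Without that nucleus Stress 1 had 165 CPM. In smooth muscle-like nuclei they were 49.0, 41.4 and 122 CPM in Stress, 37.1 CPM in Dexamethasone and 38.4 and 66.6 CPM in Control, and the groups overlapped. Nuclei of clusters left unnamed summed to 17.8, 105 and 251 CPM in Stress, 31.2 CPM in Dexamethasone and 15.4 and 4.99 CPM in Control.

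**Figure D4:**
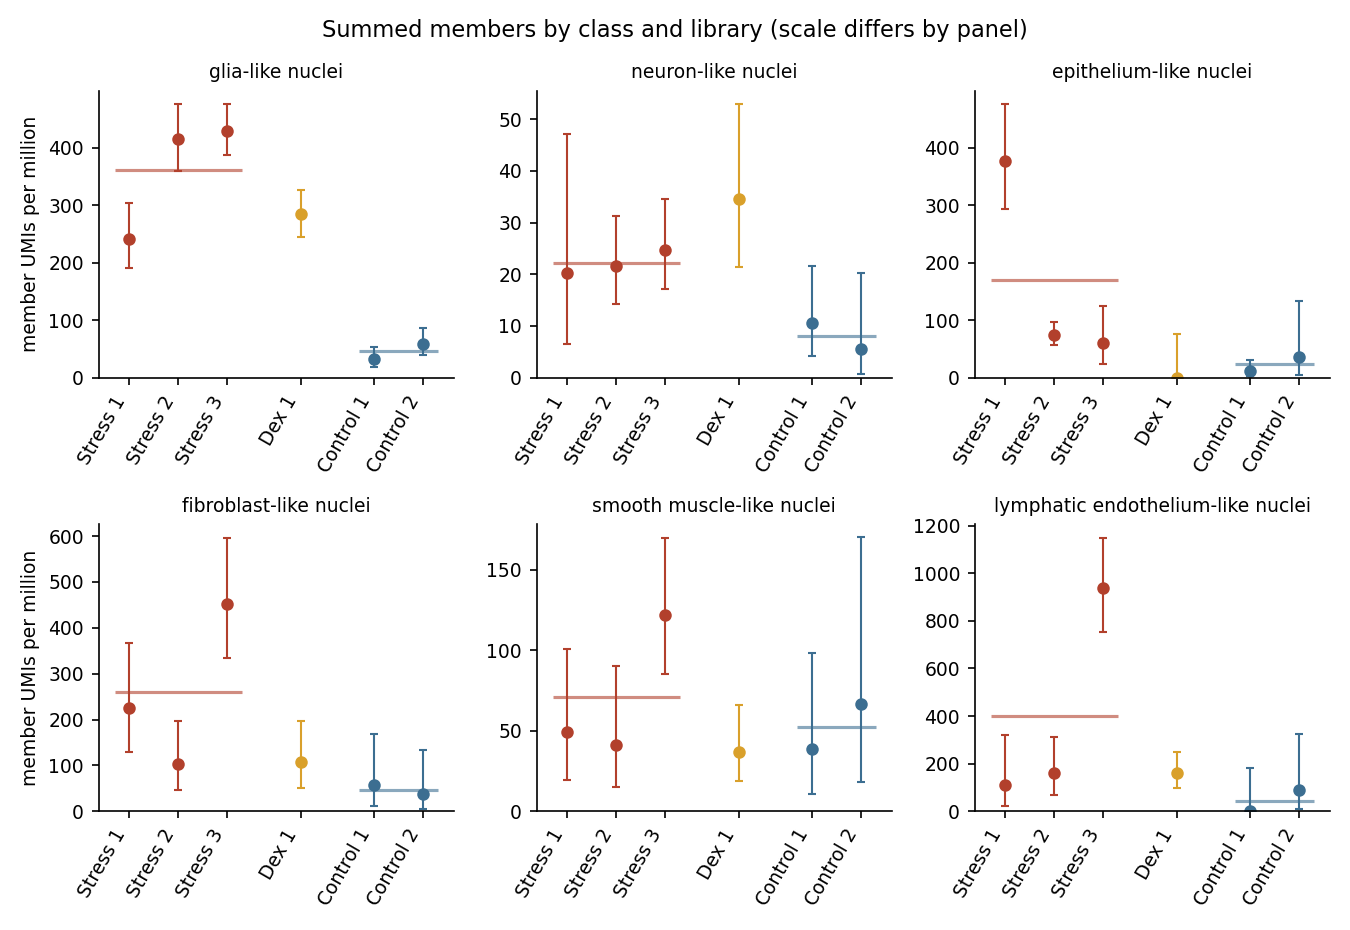
Summed member level by class and library, in CPM, with exact Poisson 95% intervals. Each panel has its own vertical scale, points are libraries, and lines are means of the Stress and of the Control libraries. Glia-like nuclei separate the Stress libraries (242 to 429.5) from Control (32.0 and 59.3) by more than the counting intervals, and neuron-like nuclei stay at or below 34.6 CPM.

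Among the 6 classes with at least 10 nuclei in every Stress and Control library, the mean Stress levels ran from lymphatic endothelium (402 ± 464 CPM, SD, n = 3) over glia (362 ± 104), fibroblasts (260 ± 177), epithelium (171 ± 179) and smooth muscle (70.9 ± 44.6) to neurons (22.1 ± 2.31). Neighbouring classes from lymphatic endothelium to smooth muscle had overlapping Stress libraries, whereas the lowest smooth muscle library (41.4) lay above the highest neuron library (24.7) and the lowest glia library (242) above the highest smooth muscle library (122). In Control the means of these classes ran from 52.5 ± 19.9 CPM in smooth muscle over 47.1 ± 14.5 in fibroblasts, 45.7 ± 19.3 in glia, 44.95 ± 63.6 in lymphatic endothelium and 24.3 ± 17.6 in epithelium to 8.05 ± 3.44 in neurons (SD, n = 2 each). Vascular endothelium-like nuclei were left out of this order because they were few (1 to 9 a library). They had 874, 169 and 209 CPM in Stress, 726 CPM in Dexamethasone and 0 and 485 CPM in Control, from at most 10 UMIs a library. Macrophage-like nuclei were left out for the same reason (4 to 26 a library), with 0, 28 and 5 member UMIs in Stress and 0 in Dexamethasone and both Controls, and 25 of the 28 came from 1 nucleus.

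The classes other than glia and neurons were tested with edgeR's quasi-likelihood test. Of the 6 members, only Iigp1 in fibroblast-like nuclei passed the low-count filter in Stress against Control. It had 155, 22.9 and 175 CPM in Stress 1 to 3 and 0 and 18.4 CPM in Control 1 and 2, a log2 fold change of 3.37 ± 1.74 (SE, adjusted p = 0.492). 10 of the 11 UMIs of Stress 1 came from 1 nucleus. Iigp1 was higher than both Controls in 3 of the 3 Stress libraries, an order not counted over all genes in fibroblasts. Thus 0 members were called, 0 had an unadjusted p under 0.05 and DESeq2 called 0, while edgeR called 1.39% of 1725 genes in fibroblasts. Dexamethasone against Control gave 4 tests of members, of Gbp2 and Gbp7 in epithelium and of Iigp1 in fibroblasts and in lymphatic endothelium. By edgeR 0 were called, with adjusted p between 0.785 and 0.958, 0 had an unadjusted p under 0.05, and DESeq2 called 0. The share of all genes called was 0.194% in epithelium, 2.5% in fibroblasts and 0.422% in lymphatic endothelium. At these depths differences of the members in those classes were mostly not detectable.

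Other genes of the pathway were counted from 6 lists of 110 genes, of which 106 are in the files. In glia-like nuclei 10 of the 52 tested were higher in Stress than in Control by edgeR at an adjusted p under 0.05, 0 were lower and 42 did not pass, against 1.48% of 6545 genes called higher. The median log2 fold change of the 52 was 0.91, against -0.01 over all genes. Of the signalling list 4 of 13 rose. Nlrc5, the transactivator of MHC class I genes, had 152, 182 and 134 CPM in Stress 1 to 3, 218 CPM in Dexamethasone 1 and 44.8 and 57.0 CPM in Control 1 and 2, a log2 fold change of 1.56 ± 0.26 (SE, adjusted p = 0.00445). Also among those that rose were Stat2, a subunit of the ISRE-binding complex (1.11 ± 0.26, adjusted p = 0.0285) and Stat3 (1.07 ± 0.19, adjusted p = 0.00567), which many cytokines also use. Irf1, an inducer of GBP genes, had a log2 fold change of 0.75 ± 0.25 (adjusted p = 0.177), and Ifngr1, a receptor chain for interferon gamma, of -0.27 ± 0.34 (adjusted p = 0.819).

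Of the antiviral effectors 5 of 17 rose in Stress glia. Oasl2, an oligoadenylate synthetase-like protein, had 77.4, 98.4 and 60.7 CPM in Stress 1 to 3, 19.1 CPM in Dexamethasone 1 and 12.8 and 16.0 CPM in Control 1 and 2, a log2 fold change of 2.37 ± 0.39 (adjusted p = 0.00443). The others were Helz2 (2.07, adjusted p = 0.0351), Ddx60 (1.67, adjusted p = 0.0103), the large ubiquitin ligase Rnf213 (1.63, adjusted p = 0.00833) and Herc6, the ligase that attaches Isg15 in mice (1.27, adjusted p = 0.00646). Of the 2 other family members tested, Irgm2 rose, with 77.4, 64.9 and 66.4 CPM in Stress, 25.01 CPM in Dexamethasone and 12.8 and 29.7 CPM in Control (1.66 ± 0.38, adjusted p = 0.0274). The call was lost without Control 1 (1.17, adjusted p = 0.194) and without any 1 Stress library (adjusted p 0.0639 to 0.137). Of 4 interferon ligands and receptors, 8 MHC presentation genes and 8 autophagy conjugation genes tested, 0 passed, and all 8 MHC genes had values above 0 (median 1.12).

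**Figure D5:**
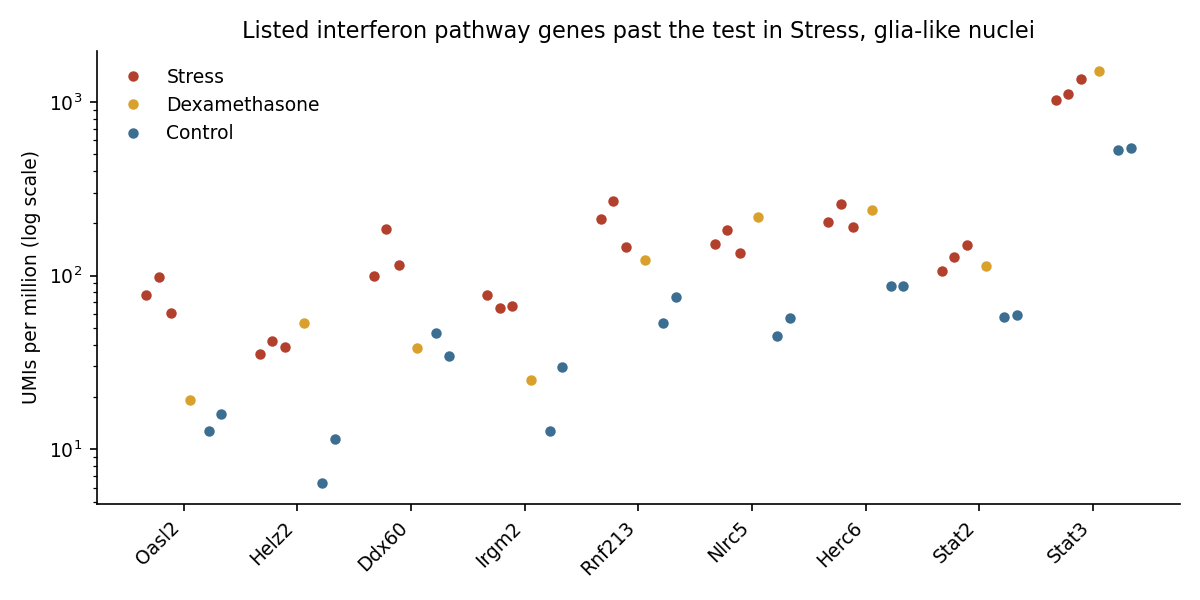
9 of the 10 listed pathway genes past the edgeR threshold in Stress against Control, in glia-like nuclei. The vertical axis is CPM on a log scale, and each point is 1 library in its group's colour. Every Stress point of each gene lies above both Control points, and the Dexamethasone point of Irgm2, Oasl2 and Ddx60 lies near the Control points.

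Leaving out 1 library at a time left Nlrc5, Oasl2 and Rnf213 past the threshold each time. Herc6 was not followed in these fits. Helz2 was lost without any 1 of the 5 libraries (adjusted p 0.0564 to 0.169), Stat2 without any except Stress 1 (0.0762 to 0.199), and without Stress 3 also Stat3 (0.0632) and Ddx60 (0.0534), when 6 of the listed genes were called.

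In the Dexamethasone library 9 of 64 listed genes were higher in glia-like nuclei than in Control, 0 were lower and 55 did not pass, against 5.56% of 7699 genes called higher. Nlrc5 (2.18, adjusted p = 3.67e-05), Irf9, the DNA-binding partner of Stat2 (2.07, adjusted p = 0.00897), the kinase Jak1 (1.91, adjusted p = 4.12e-05), the phosphatase Ptpn2 (1.88, adjusted p = 3.78e-05), Stat3 (1.57, adjusted p = 0.00019), Helz2 (2.64, adjusted p = 0.00328), Herc6 (1.53, adjusted p = 0.000922) and H2-Q4, an MHC class I gene (1.58, adjusted p = 0.0342), were among those that passed edgeR's test. Irgm2 did not (0.34, adjusted p = 0.791). Only 5 were called by DESeq2, and 4 in nuclei without the markers of other cell types. Within the Col11a1 and Frzb cluster, with 23 Dexamethasone nuclei, edgeR called 0 of 46 listed genes. There the log2 fold change was -0.55 for Stat3 and 0.47 for Jak1. EdgeR called 3 of 36 in the Arih1, Nr4a3 and Crem cluster, with 6 and 2 Control nuclei. In the Col28a1, Kcna1 and Scn7a cluster it called 1 of 19. The shares of all genes called are not given for these clusters. In neuron-like nuclei 0 of 40 listed genes passed in Stress against Control by edgeR and 0 by DESeq2, and 0.062% of 8066 genes were called. Of the 40, 8 had an unadjusted p under 0.05, a count whose share over all genes is not given here. In the Dexamethasone library 1 of 48 passed in neurons, Stat3 (1.47, adjusted p = 0.0234), while 0.388% of 9282 genes were called. DESeq2 did not call it.

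Over 30 sums, 5 classes in each of 6 libraries, the genes whose log2(CPM + 10) was most like the mean of the members were Rnf213 (Pearson's r 0.843), Tor1aip1 (0.831), Gbp5 (0.789), Irgm2 (0.772) and Coq10b (0.763), out of 9280 genes compared. The points share libraries, classes and depth, so r describes these sums only. Gbp5 in glia had 16.1, 31.4 and 21.8 CPM in Stress, 42.7 CPM in Dexamethasone and 4.27 and 36.5 CPM in Control, so that its groups overlapped. Between pairs of members r was 0.449 (Gbp3 and Gbp2) to 0.738 (Gbp7 and Irgm1).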

How the data were processed

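Single-nucleus UMI counts per gene and barcode were deposited by the authors for 3 Stress, 1 Dexamethasone and 2 Control libraries. Per the file headers they were made with Cell Ranger 4.0.0 (Stress, Control) and 5.0.1 (Dexamethasone), so the Dexamethasone library and this version cannot be told apart. The submitters' processing notes name Cell Ranger 5.0 and mm10. Whether intronic reads were counted is not given in the sources used here.

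Kept barcodes had 300 or more genes detected and no more than 5% of UMIs from mitochondrial genes. Scanpy 1.11.5 marked 31 doublets (0.896%), which were removed, and clustered the rest (2000 variable genes, 30 components, Leiden resolution 1). Clusters were named from markers. The score limits were set after the clusters were seen. Iigp1 and Gbp2 were among the variable genes.

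UMIs were summed per library and class and tested with edgeR 4.0.16 (TMM, filterByExpr, quasi-likelihood test, Benjamini-Hochberg over all genes tested, threshold 0.05), after a test on simulated data. Stress was fitted with Control alone, and Dexamethasone with all 6 libraries. Each SE of a log2 value is that value's size divided by the square root of edgeR's F statistic. It therefore holds nothing beyond that test, and for the members no test is read from it. DESeq2 1.42.0 and other filters, depths, clusterings and left-out libraries were alternatives. In every class all 6 members are named, and of each list up to 4 called genes of largest change without overlap. Herc6 in Stress, and Stat3 in Dexamethasone, were added after their values were seen, and so were values of Irf1, Ifngr1 and Irgm2 that did not pass. 1 gene of the signalling list is counted but not reported here. Members, lists and tests were chosen with earlier results of these data known. No pairing of same-numbered Stress and Control libraries was used in the main fits. A check of whether they deviated together could not decide the question, because the deviations of the Control libraries from their mean mirror each other.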

Additional observations from a re-analysis of the deposited data

Results flagged for a closer look

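Gbp3 was higher in every Stress library than in both Controls in glia-like nuclei and lower in every Stress library than in both Controls in smooth muscle-like nuclei, where it averaged 3.46 CPM in Stress and 13.1 CPM in Control. The smooth muscle values rest on 2 UMIs in Stress and 2 in Control, and the difference between the classes was not tested.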

How the results depend on the processing

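The log2 difference in glia-like nuclei stayed above 0 in all 86 values compared, counted over the 5 counted members and the alternatives. DESeq2, the fit without a low-count filter and the replicate block were not among the alternatives compared for the members. It moved by more than the SD between replicates in 22 of these values. That SD was taken on log2(CPM + 10), which shrinks differences at low levels, and the fitted differences were not. The 22 is therefore a rough count. Thinning to equal totals gave 3.36 for Irgm1. The strict nucleus filter gave 7.72 for Iigp1, and the other 4 members could not be fitted there because too few UMIs remained. The following 3 alternatives were chosen after seeing the data. Leaving out the nucleus of most member UMIs gave 3.42 for Irgm1, nuclei without other cell types' markers gave 2.89 for Gbp2 and 2.53 for Gbp7, and barcodes above the mitochondrial limit gave 2.77 for Gbp3. With the same cluster shares in every library, the values were 4.48 for Irgm1, 6.05 for Iigp1, 0.36 for Gbp2, 0.64 for Gbp3 and 0.78 for Gbp7, where 8 Control nuclei set the weighted Control level of 1 cluster. Without Control 1 and Stress 1, the values were 3.38 for Irgm1, 9.65 for Iigp1 and 1.23 for Gbp3. Leaving out 1 library at a time gave 3.37 to 4.01 for Irgm1, 4.35 to 9.19 for Iigp1, 1.79 to 2.45 for Gbp2, 1.05 to 7.37 for Gbp3 and 1.61 to 2.42 for Gbp7. The highest values of Iigp1 and Gbp3 arise where the remaining Control held 0 UMIs.

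The share of all genes called is not given for the alternatives below, so a larger count is not read as a stronger result. Listed pathway genes called in glia-like nuclei of Stress numbered 10. There were 18 without a low-count filter (91 tested), 28 without the mitochondrial filter, 3 with the strict nucleus filter (20 tested), and 6 to 10 when 1 library was left out. In Dexamethasone glia, 9 became 5 with DESeq2 and 4 in nuclei without other cell types' markers, where the cause was not tested. In Dexamethasone neurons, 1 became 0 with DESeq2, with thinning and with the strict filter, 4 without a low-count filter and 3 without the mitochondrial filter. The counts of members called in other classes were 0 in every alternative run. With the replicate block 13 listed genes were called in Stress glia, 0 in Stress neurons and 0 members in other classes. Correlations of same-numbered deviations were -0.15 and -0.03 in glia and 0.00 and 0.07 in neurons. With 2 Control libraries, their deviations from the mean mirror each other, so this check cannot decide whether the numbers pair the libraries. Depth sets the smallest level that can be seen: 3 counts equal 3.44 to 9.67 CPM in glia-like, 2.18 to 12.1 CPM in neuron-like and 27.6 to 57.3 CPM in fibroblast-like nuclei.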
